A study of Mus musculus with 8 samples.

Results

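T and B lymphocyte genes were followed in RNA-seq counts from whole uteri of PD10 mice (postnatal day 10), 4 of them controls and 4 of them *Ezh2 Amhr2*-Cre cKO, with 1 library per uterus. Genes were taken by symbol from a list of 34 T and B cell genes and joined to the counts by Entrez identifier. Of these, 28 were among the 16658 genes tested, 4 had too few counts for the test (*Cd8a*, *Cd8b1*, *Cd6* and *Pax5*), and the names Thy1l and Tcf7l matched no gene symbol. The 28 genes tested fall into 19 of the T lineage, 6 of the B lineage and 3 shared by many leukocytes (*Cd37*, *Ptprcap* and *Cd52*). All mice carried the floxed *Ezh2* allele (Ezh2 f/f) on a C57BL/6/129SvEv background and received no treatment, and the cKO mice also carried Cre under the control of *Amhr2* (Ezh2 f/f; Acre). The *Amhr2* driver acts in cells of the female reproductive tract that derive from mesenchyme, and its activity in lymphocytes was not tested.

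T cells recognise antigen through a T cell receptor that signals through the CD3 chains (*Cd3e*, *Cd3d*, *Cd3g*) and the zeta chain (*Cd247*). Lck, bound to the co-receptors CD4 and CD8, phosphorylates tyrosine motifs of these chains, Zap70 docks on them, and the scaffold Lat passes the signal on. B cells use a membrane antibody such as IgM (*Ighm*) that signals through Cd79a and Cd79b. NK cells lack both receptors but express several of the T lineage genes, among them *Cd247*, *Lck*, *Zap70*, *Lat*, *Txk*, *Cd2*, *Cd7*, *Cd27* and *Ms4a4b*. In the uterus before puberty lymphocytes are a small part of the tissue, and a whole uterus contributes their transcripts together with those of blood within its vessels.

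The libraries held between 25287141 and 36685807 counts, and expression is given as CPM, the counts of a gene relative to all counts of its library, scaled with the TMM factors of edgeR. Means are given with their SD over mice. A count of 3 corresponds to between 0.0824 and 0.117 CPM. Uterine markers were present in every library, with *Esr1*, *Hoxa10*, *Krt8* and *Acta2* between 4619 and 123023 counts each. *Ezh2*, counted over the whole gene and the whole uterus, was at 45.0 ± 8.70 CPM in controls against 36.8 ± 4.41 CPM in cKO mice (SD, n = 4 per genotype), a log2 fold change (log2FC, cKO against control) of -0.29 (SE, the standard error, 0.13, adjusted p = 0.247 in edgeR). Some libraries stood apart within a genotype. Control replicates 1 and 2 held more leukocyte transcripts than control replicates 3 and 4, with *Ptprc*, the gene of the leukocyte surface phosphatase CD45, at 13.2 and 14.8 against 7.78 and 8.70 CPM. In cKO replicates 1 to 3, 7 fat cell genes tested and *Lep* together gave between 101.1 and 229.4 CPM, against 7.78 CPM in cKO replicate 4 and between 7.19 and 17.1 CPM in control libraries. The labels name no batch.

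Of 28 genes tested, 2 were lower in the cKO at an adjusted p under 0.05, by the quasi-likelihood test of edgeR with Benjamini-Hochberg adjustment over all genes. Both are T lineage surface genes that NK cells also express, *Cd7* and *Ms4a4b*, and both changed by more than 2-fold. Over all genes tested, 2.71% fell by this call and 0.636% fell by more than 2-fold. None of the 28 rose, where 2.62% of all genes did, and none of those that moved upward in the fit had an unadjusted p under 0.05 except *Ms4a1*. DESeq2 and limma-voom also called none of them higher. An unadjusted p under 0.05, in either direction, was found in 9 of the 28 and in 21.2% of all genes tested. In 5 genes every cKO library was below every control library (*Cd7*, *Ms4a4b*, *Cd3d*, *Skap1* and *Ptprcap*), a pattern seen in 6.42% of all genes, and no member had every cKO library above every control library, as 5.90% of all genes did. The median log2FC was -0.34 over the 19 T lineage genes, -0.79 over the 3 shared genes and 0.34 over the 6 B lineage genes, against 0.00044 over all genes tested. With only control replicates 3 and 4 as controls these medians were -0.20, -0.43 and 0.47, and with only control replicates 1 and 2 they were -0.53, -0.96 and 0.14. The B lineage median was -0.21 with the fat score (the mean log2 CPM of the fat genes) as a covariate and -0.13 with cKO replicate 4 alone, and the T lineage median was -0.99 and -0.82. The centred score was -1.56 to -0.961 in controls, 1.86 to 2.88 in cKO replicates 1 to 3 and -1.45 in cKO replicate 4. Both settings therefore compare mainly cKO replicate 4 with controls and are not separate checks. Without cKO replicate 4 the T lineage median was -0.14, and without cKO replicate 2 the B lineage median was 0.17. These are whole-tissue counts, in which fewer cells of a type and less RNA per cell cannot be told apart.

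**Figure D1:**
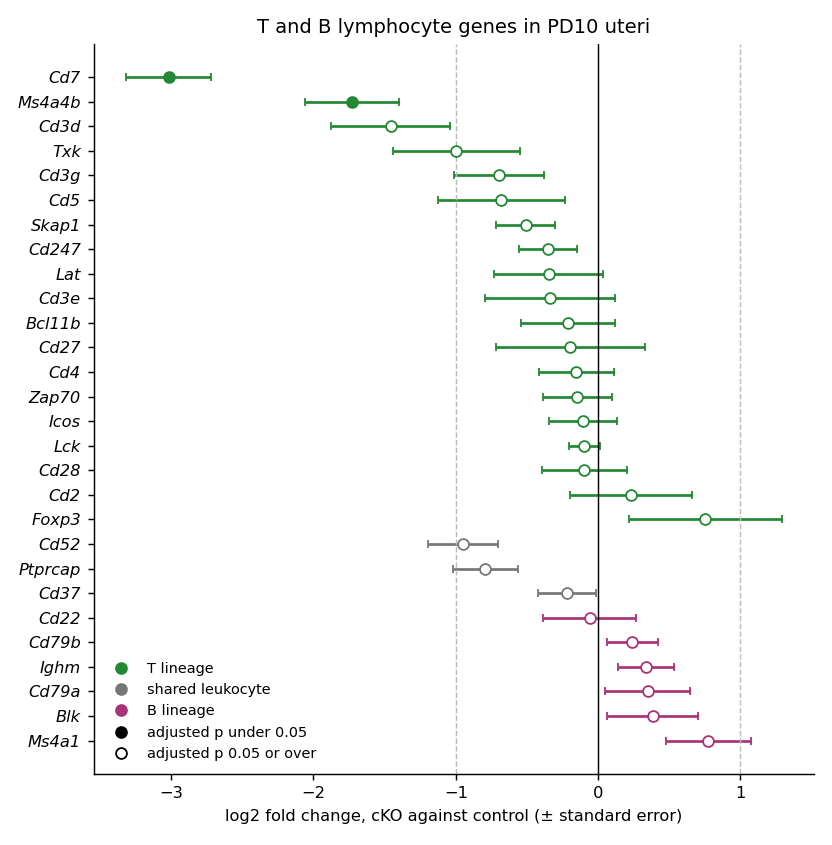
Log2FC of each of the 28 lymphocyte genes tested, cKO against control, on the horizontal axis, with the standard error as bars (n = 4 mice per genotype). Filled points have an adjusted p under 0.05 and dashed lines mark a 2-fold change. *Cd7* at -3.02 and *Ms4a4b* at -1.73 are the filled points, most T lineage genes lie a little left of 0, and 5 of 6 B lineage genes lie right of it.

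*Cd7* encodes an immunoglobulin superfamily receptor on the surface of T cells, NK cells and their progenitors. The gene (Entrez 12516) lies on chromosome 11 of GRCm38 from 121036747 to 121039478, where an exon of the non-coding gene *Gm11775* overlaps it on the opposite strand. Control replicates 1 to 4 had 62, 57, 36 and 50 counts of *Cd7*, and cKO replicates 1 to 4 had 6, 5, 7 and 6. On the CPM scale the control libraries were at 1.96, 2.20, 1.28 and 1.37, and the cKO libraries at 0.233, 0.167, 0.216 and 0.210. The cKO libraries lay close together and far below the lowest control library. The mean was 8.25-fold lower in cKO uteri, at 0.207 ± 0.0279 against 1.70 ± 0.447 CPM (SD, n = 4 per genotype). The log2FC of *Cd7* was -3.02 (SE 0.30, adjusted p = 0.000118 in edgeR), the exact permutation test of its 8 values gave a two-sided p of 0.029, the smallest that 4 mice against 4 allow, and the gene fell in each fit that left out 1 library, with log2FC values from -3.12 to -2.88. With only control replicates 3 and 4 as controls it was -2.67 (adjusted p = 0.00105 in edgeR), with the fat score as a covariate -3.08 (adjusted p = 0.0191), and in cKO replicate 4 alone, the cKO library with fat transcripts at the control level, -2.99 (adjusted p = 0.0957).

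*Ms4a4b* encodes a 4-pass membrane protein of the MS4A family that tunes signalling in T cells. The gene (Entrez 60361) lies on chromosome 19 of GRCm38 from 11443558 to 11463549, among related *Ms4a* genes whose reads the counting could have shared. Control replicates 1 to 4 were at 2.93, 2.05, 1.53 and 1.02 CPM, and cKO replicates 1 to 4 were at 0.466, 0.703, 0.616 and 0.455 CPM. The genotypes did not overlap, and control replicate 4 came nearest to the cKO libraries. The mean of *Ms4a4b* was 3.36-fold lower in cKO uteri, at 0.560 ± 0.120 against 1.88 ± 0.818 CPM (SD, n = 4 per genotype), with a log2FC of -1.73 (SE 0.33, adjusted p = 0.00985 in edgeR). Its adjusted p-value reached 0.0401 when 1 library was left out, without cKO replicate 1. It was over 0.05 with only control replicates 3 and 4 as controls, where the log2FC was -1.16 (adjusted p = 0.0817 in edgeR), with the fat score as a covariate (-2.11, adjusted p = 0.151) and with cKO replicate 4 alone (-2.03, adjusted p = 0.478).

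The shared leukocyte genes *Cd52* and *Ptprcap* had the next lowest adjusted p-values in edgeR, and neither passed the test. *Cd52*, the gene of a short glycopeptide anchored in the membrane of lymphocytes and other leukocytes, was at 9.05, 11.1, 6.21 and 4.58 CPM in control replicates 1 to 4. In cKO replicates 1 to 4 it was at 4.93, 3.65, 3.42 and 3.99 CPM, so that only cKO replicate 1 lay above the lowest control library. Its log2FC was -0.95 (SE 0.25, adjusted p = 0.0509 in edgeR). The adjusted p-value of *Cd52* was 0.00275 in DESeq2, and it was 0.00695 in edgeR without control replicate 4 and 0.145 without control replicate 1. An exon of *Crybg2* overlaps *Cd52* on the opposite strand, and the sources used here do not give the strand setting of the counting.

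*Ptprcap* encodes a transmembrane phosphoprotein that associates with CD45. It was at 1.36, 1.74, 1.21 and 1.21 CPM in control replicates 1 to 4 and at 0.932, 0.636, 0.801 and 0.806 CPM in cKO replicates 1 to 4. The genotypes did not overlap, and the log2FC was -0.79 (SE 0.23, adjusted p = 0.0630 in edgeR). Exons of *Coro1b*, on the same strand, and *Rps6kb2*, on the opposite strand, overlap *Ptprcap*. *Cd37*, a tetraspanin gene highest in mature B cells, had a log2FC of -0.22 (SE 0.20, adjusted p = 0.569 in edgeR), with 1.43 to 2.36 CPM in control and 1.40 to 1.97 CPM in cKO libraries. Of these 3 genes, edgeR and limma-voom called 0 and DESeq2 called 1, and 2 had an unadjusted p under 0.05 in edgeR (21.2% of all genes).

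**Figure D2:**
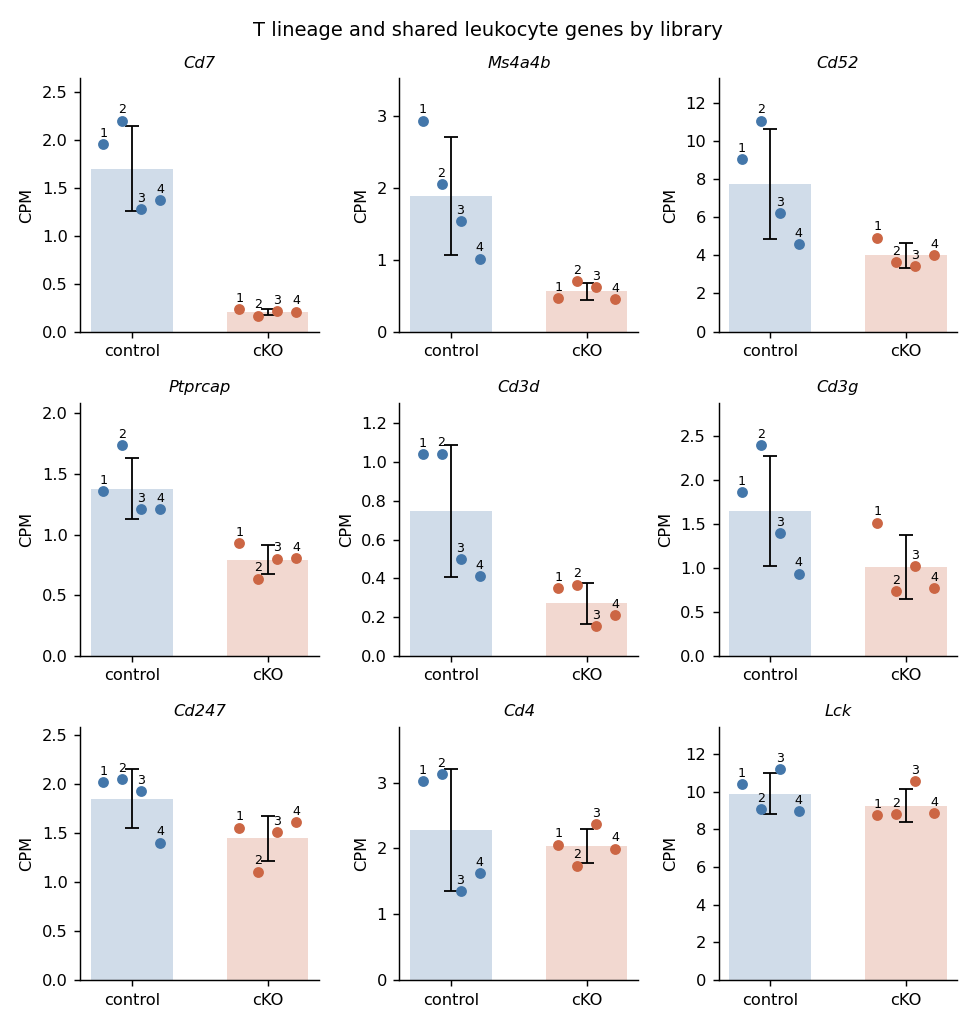
Expression in CPM of 9 T lineage and shared leukocyte genes by genotype, with a bar for the mean, an error bar for the SD (n = 4 mice) and a point for each library, numbered by replicate. *Cd7* sits between 0.167 and 0.233 CPM in cKO libraries and at 1.28 CPM or more in control libraries, while *Lck* and *Cd4* overlap. Control replicates 1 and 2 are the highest libraries for *Cd7*, *Ms4a4b*, *Cd52*, *Cd3d*, *Cd3g* and *Cd4*.

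The 4 chains of the T cell receptor signalling complex all had negative log2FC values, from -1.46 in *Cd3d* to -0.34 in *Cd3e*, and edgeR and limma-voom called none of them, while 2 had an unadjusted p under 0.05 in edgeR (21.2% of all genes). DESeq2 called *Cd3d* lower (adjusted p = 0.0424). *Cd3d* had 33, 27, 14 and 15 counts in control replicates 1 to 4 and 9, 11, 5 and 6 counts in cKO replicates 1 to 4. Every cKO library had less than every control library, but control replicates 3 and 4 (0.499 and 0.412 CPM) lay much nearer to the highest cKO library (0.368 CPM) than control replicates 1 and 2 did (1.04 CPM in each). The log2FC of *Cd3d* was -1.46 (SE 0.42, adjusted p = 0.0642 in edgeR). It was -0.75 with only control replicates 3 and 4 as controls and -1.95 with only control replicates 1 and 2 (adjusted p = 0.406 and 0.0157 in edgeR).

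*Cd3g* was at 1.86, 2.40, 1.39 and 0.933 CPM in control replicates 1 to 4 and at 1.51, 0.736, 1.02 and 0.771 CPM in cKO replicates 1 to 4, with a log2FC of -0.70 (SE 0.32, adjusted p = 0.229 in edgeR) that was -0.20 with only control replicates 3 and 4 as controls. Its genotypes overlapped, as did those of *Cd3e* and *Cd247*. *Cd3e* ranged from 0.247 to 1.01 CPM in control and from 0.234 to 0.678 CPM in cKO libraries. Its log2FC of -0.34 (SE 0.46, adjusted p = 0.710 in edgeR) became 0.13 without control replicate 1. *Cd247*, at 1.85 ± 0.304 CPM in controls against 1.44 ± 0.231 CPM in cKO mice (SD, n = 4 per genotype), had a log2FC of -0.35 (SE 0.21, adjusted p = 0.349 in edgeR).

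*Cd3g* and *Cd3d* lie head to head on chromosome 9, with 1355 bases between their start sites in RefSeq's promoter table of GRCm38.p6, and *Cd3e* lies beside them from 44998735 to 45009663. Their upstream windows are shown for this arrangement, and that of *Ms4a4b* because it was called lower. The table has a window for 18 of the 34 names. Each sequence is the 250 bases before the start site, 5′ to 3′ on the strand of the gene, at chr9:44980432-44980681 (minus strand) for *Cd3g*, chr9:44981536-44981785 (plus strand) for *Cd3d* and chr19:11443308-11443557 (plus strand) for *Ms4a4b*. Capitals mark matches to 3 short strings, searched on both strands. The ETS-type string was AGGAAG. The E-box string was CAGGTG. The GATA-type string was AGATAA.
Cd3g: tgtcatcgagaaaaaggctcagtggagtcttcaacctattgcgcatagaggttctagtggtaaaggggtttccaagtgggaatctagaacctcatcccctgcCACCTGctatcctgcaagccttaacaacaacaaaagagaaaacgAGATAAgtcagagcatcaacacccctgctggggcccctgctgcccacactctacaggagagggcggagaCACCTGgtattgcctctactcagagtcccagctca
Cd3d: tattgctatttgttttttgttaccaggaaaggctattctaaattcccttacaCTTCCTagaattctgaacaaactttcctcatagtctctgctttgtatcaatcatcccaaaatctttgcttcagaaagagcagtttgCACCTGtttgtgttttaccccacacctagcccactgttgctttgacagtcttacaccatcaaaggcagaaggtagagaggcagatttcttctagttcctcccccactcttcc
Ms4a4b: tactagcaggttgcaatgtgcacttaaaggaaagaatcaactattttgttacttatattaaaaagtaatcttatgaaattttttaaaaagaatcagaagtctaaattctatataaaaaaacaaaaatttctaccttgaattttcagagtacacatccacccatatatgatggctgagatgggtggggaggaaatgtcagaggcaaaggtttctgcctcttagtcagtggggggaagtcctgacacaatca

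The window of *Cd3g* holds the E-box letters at 2 places and the GATA-type letters once, that of *Cd3d* holds the ETS-type and the E-box letters once each, and that of *Ms4a4b* holds none of these 3 strings. The ETS-type string was found upstream of 11 of the 18 genes with a window (61.1%), against 32.3% of the 27025 genes in the table. The E-box string was found upstream of 9 of the 18 (50.0% against 19.4%) and the GATA-type string upstream of 3 (16.7% against 11.4%). These matches describe the letters in the windows only.

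Of the co-receptors, *Cd4* was tested and did not differ beyond the spread between mice. It was at 3.03, 3.13, 1.36 and 1.62 CPM in control replicates 1 to 4 and between 1.74 and 2.37 CPM in cKO libraries, with a log2FC of -0.15 (SE 0.26, adjusted p = 0.778 in edgeR). Macrophages and dendritic cells of the mouse can also carry *Cd4* transcripts. *Cd8a* and *Cd8b1*, the chains of CD8, were under the filter on low counts. *Cd8a* had 29, 30, 5 and 1 counts in control replicates 1 to 4 and 3, 4, 10 and 2 counts in cKO replicates 1 to 4. *Cd8b1* had 12, 8, 2 and 2 counts against 5, 4, 3 and 0, the last of which allows up to 0.105 CPM. For both genes control replicates 1 and 2 were above all other libraries, and control replicate 4 had less CPM of *Cd8a* than any cKO library.

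The genes that act just below the receptor, the kinases *Lck*, *Zap70* and *Txk* and the adaptors *Lat* and *Skap1*, all had negative log2FC values, and none passed the test in edgeR, DESeq2 or limma-voom, with 2 at an unadjusted p under 0.05 in edgeR (21.2% of all genes). *Skap1*, which links the receptor to integrins, was at 1.55, 1.12, 1.39 and 1.21 CPM in control replicates 1 to 4 and at 0.971, 0.904, 1.02 and 0.806 CPM in cKO replicates 1 to 4. The genotypes did not overlap, and the log2FC was -0.51 (SE 0.21, adjusted p = 0.184 in edgeR). *Txk*, a Tec family kinase, ranged from 0.275 to 0.812 CPM in control and from 0.140 to 0.502 CPM in cKO libraries, a log2FC of -0.997 (SE 0.44, adjusted p = 0.220 in edgeR) that was -0.52 with only control replicates 3 and 4 as controls. *Lck* was the most abundant T lineage gene, at 9.90 ± 1.09 CPM in controls against 9.24 ± 0.884 CPM in cKO mice (SD, n = 4 per genotype). Its log2FC of -0.10 had a SE of only 0.11 (adjusted p = 0.655 in edgeR), so that it was measured more tightly than the other T lineage genes. In control replicates 1 to 4 *Lck* was at 10.4, 9.05, 11.2 and 8.95 CPM and did not follow *Ptprc*. Which cells carry *Lck* in these uteri was not tested. *Zap70* (-0.15) and *Lat* (-0.35) had adjusted p-values of 0.767 and 0.640 in edgeR, and their libraries overlapped.

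Surface receptors of T cells other than *Cd7* and *Ms4a4b* overlapped between genotypes. *Cd5*, which dampens receptor signalling, had a log2FC of -0.68 (SE 0.45, adjusted p = 0.407 in edgeR) at 2 to 11 counts per library. The adhesion receptor *Cd2* (0.23) and the costimulatory receptors *Cd27* (-0.19), *Cd28* (-0.10) and *Icos* (-0.11) had adjusted p-values from 0.798 to 0.886 in edgeR. *Icos* was among the steadiest of the low genes, with 17 to 30 counts per library and 0.848 ± 0.0535 CPM in control against 0.785 ± 0.170 CPM in cKO uteri (SD, n = 4 per genotype). *Cd6*, under the filter, had 9, 9, 5 and 2 counts in control replicates 1 to 4 and 4, 4, 3 and 2 in cKO replicates 1 to 4.

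The transcription factor genes of the T lineage were likewise not called. *Foxp3*, which defines regulatory T cells, was at 0.284, 0.0774, 0.178 and 0.275 CPM in control replicates 1 to 4 and at 0.311, 0.569, 0.462 and 0.0701 CPM in cKO replicates 1 to 4. Its log2FC of 0.75 (SE 0.54, adjusted p = 0.449 in edgeR) rested on 2 to 17 counts per library, and it was cKO replicates 1 to 3, the libraries high in fat transcripts, that lay above every control library. With cKO replicate 4 alone the log2FC was -1.53. Exons of *Ccdc22*, *Ppp1r3f* and other genes overlap *Foxp3*. *Bcl11b*, needed for commitment to the T lineage, had a log2FC of -0.21 (SE 0.33, adjusted p = 0.752 in edgeR).

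No B lineage gene was called. Of 6 tested, 5 had positive log2FC values, 0 passed the test in edgeR, DESeq2 or limma-voom, and 1 (*Ms4a1*) had an unadjusted p under 0.05 in edgeR (21.2% of all genes). *Ighm*, the constant region of the IgM heavy chain, was at 9.05, 11.4, 8.92 and 8.26 CPM in control replicates 1 to 4 and at 14.1, 15.6, 9.77 and 7.88 CPM in cKO replicates 1 to 4. Replicates 1 and 2 of the cKO were above every control library and cKO replicate 4 was below them all, with a log2FC of 0.34 (SE 0.20, adjusted p = 0.361 in edgeR). *Cd79b* and *Cd79a*, the signalling chains of the B cell receptor, had log2FC values of 0.24 (SE 0.18) and 0.35 (SE 0.30), with adjusted p-values of 0.469 and 0.534 in edgeR. *Cd79b* was at 2.91 ± 0.649 CPM in controls against 3.42 ± 0.385 CPM in cKO mice (SD, n = 4 per genotype).

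*Ms4a1*, the gene of CD20, was at 0.599, 0.426, 0.499 and 0.357 CPM in control replicates 1 to 4 and at 1.09, 0.569, 0.678 and 0.911 CPM in cKO replicates 1 to 4. Only cKO replicate 2 lay below the highest control library, and cKO replicate 4 was among the higher libraries. The log2FC of *Ms4a1* was 0.77 (SE 0.30, adjusted p = 0.158 in edgeR). *Blk*, a Src family kinase of B cells and some T cells, had a log2FC of 0.38, and *Cd22*, a sialic acid binding inhibitory receptor of B cells, had one of -0.06, with adjusted p-values of 0.527 and 0.938 in edgeR. *Pax5*, the B lineage commitment factor, was under the filter, with 1 count in each control library and 3, 0, 4 and 1 counts in cKO replicates 1 to 4.

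**Figure D3:**
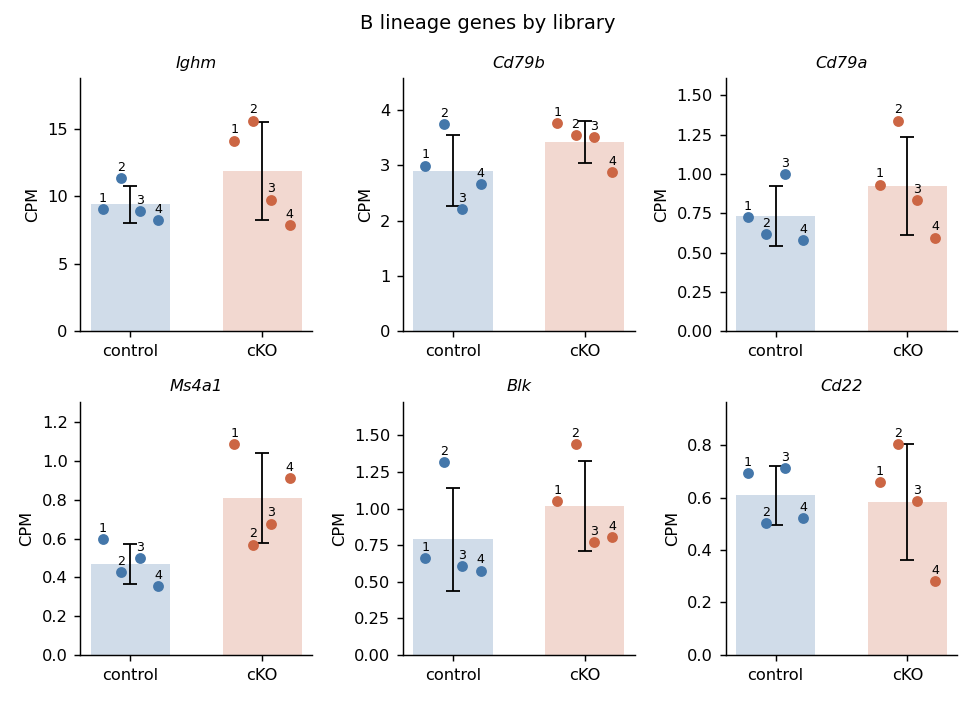
Expression in CPM of the 6 B lineage genes tested, by genotype, with a bar for the mean, an error bar for the SD (n = 4 mice) and a point for each library, numbered by replicate. The genotypes overlap in every panel, and cKO replicates 1 and 2 are the highest libraries for *Ighm*, at 14.1 and 15.6 CPM.

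Summed over the 7 B lineage genes, the level was 14.8, 18.0, 14.0 and 13.0 CPM in control replicates 1 to 4 and 21.7, 23.3, 16.3 and 13.4 CPM in cKO replicates 1 to 4. Replicates 1 and 2 of the cKO lay above all control libraries, and cKO replicates 3 and 4 were within the control range. Replicate 4, with 7.78 CPM of the fat list, had the lowest B lineage sum of the cKO libraries. A list of red cell genes was at 128.1 CPM in cKO replicate 1, against 21.3 to 47.3 CPM in all other libraries. For *Ighm*, *Cd79a*, *Cd79b* and *Foxp3* the log2FC turned negative with cKO replicate 4 alone or with the fat score as a covariate. The part of fat tissue or blood in these values was not tested. Of the genes of lymph node stroma and lymphatic vessels, 4 were tested and edgeR called 0, with 2 at an unadjusted p under 0.05 (21.2% of all genes). These 2 were *Cxcl13*, a chemokine that attracts B cells, and *Madcam1*, a vessel adhesion molecule. *Cxcl13* was at 0.789, 0.271, 0.499 and 0.851 CPM in control replicates 1 to 4 and between 0.911 and 1.11 CPM in cKO libraries, without overlap, with a log2FC of 0.73 (SE 0.31, adjusted p = 0.196 in edgeR). *Madcam1* had a log2FC of -0.49 (adjusted p = 0.207 in edgeR), and *Lyve1* and *Prox1*, of lymphatic endothelium, had 0.23 and 0.15 (adjusted p = 0.361 and 0.495). *Glycam1* and *Ccl19* had at most 1 count in any library. *Ccl21a*, which has near-identical copies that could share its reads, had 178 and 241 counts in control replicates 2 and 3 and 0 in all other libraries.

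The summed level of the 22 T lineage genes with counts was 34.1, 32.3, 26.7 and 22.9 CPM in control replicates 1 to 4 and 23.3, 21.4, 23.7 and 19.2 CPM in cKO replicates 1 to 4. Without *Lck*, left out because its level was high and steady in these same data, the sum was 23.7, 23.2, 15.4 and 14.0 CPM against 14.6, 12.6, 13.2 and 10.3 CPM. The cKO libraries lay near or below control replicates 3 and 4, and control replicates 1 and 2 stood above all other libraries. Of 11 T lineage genes tested that NK cells also express, 10 had negative log2FC values (median -0.35) and 2 passed the test. Over all genes, 8308 of 16658 had negative values and 2.71% were called lower. Of the other 8 T lineage genes tested, *Cd3e*, *Cd3d* and *Cd3g* among them, 7 had negative log2FC values (median -0.27). Of these 8, 0 passed the test in edgeR or limma-voom, 1 (*Cd3d*) in DESeq2, and 2 had an unadjusted p under 0.05 in edgeR (21.2% of all genes). The split by NK cell expression was drawn from general knowledge and was not measured here.

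**Figure D4:**
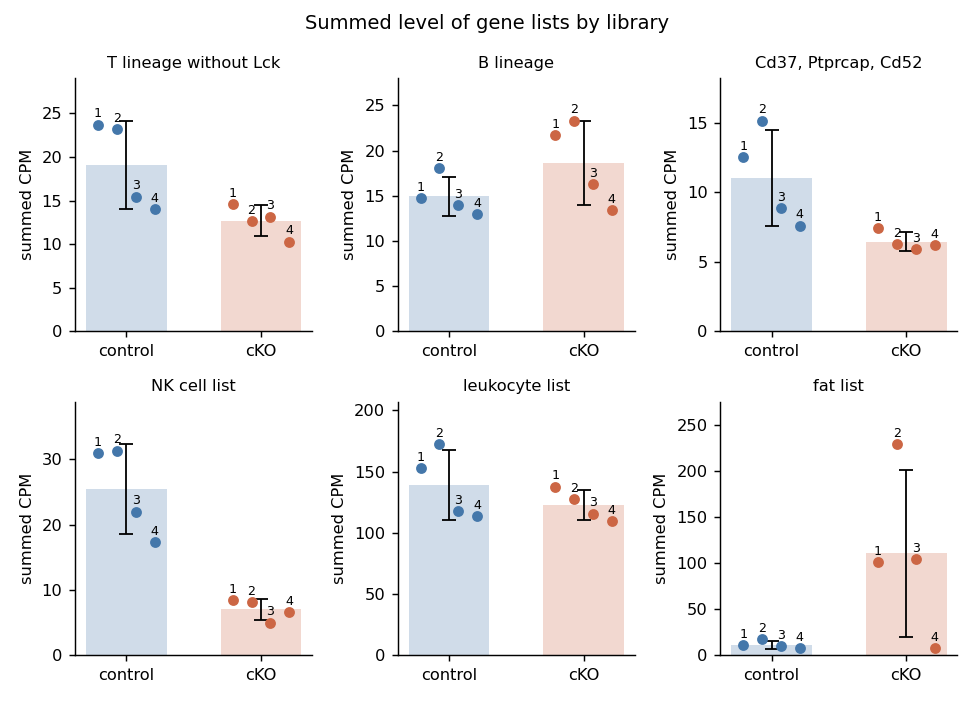
Summed CPM of 6 gene lists by genotype, with a bar for the mean, an error bar for the SD (n = 4 mice) and a point for each library, numbered by replicate. The NK cell list is at most 8.35 CPM in cKO libraries and at least 17.3 CPM in control libraries, while the T lineage (without *Lck*), B lineage and 15-gene leukocyte lists overlap. The sum of *Cd37*, *Ptprcap* and *Cd52* is at most 7.42 CPM in cKO libraries and at least 7.60 CPM in control libraries. Scaled by library totals alone, this sum overlaps. The fat list is raised in cKO replicates 1 to 3 only.

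NK cell markers moved with *Cd7* and *Ms4a4b*. Of 15 NK cell genes tested, 12 fell at an adjusted p under 0.05 in edgeR, where 2.71% of all genes did. These were *Ncr1*, *Klrk1*, *Klrd1*, *Klrc1*, *Klrb1c*, *Klre1*, *Gzma*, *Gzmb*, *Il2rb*, *Xcl1*, *Ccl5* and *Nkg7*. The list shares no gene with the lymphocyte list, and the median log2FC over the 15 was -2.03. The summed level of the list was 25.4 ± 6.91 CPM in controls against 6.99 ± 1.58 CPM in cKO mice (SD, n = 4 per genotype). The part of NK cells in the lower levels of *Cd7* and *Ms4a4b* was not tested. Leukocytes as a whole were measured with 15 genes such as *Ptprc*, *Cd53* and *Laptm5*. Their sum ranged from 113.6 to 172.3 CPM in control and from 109.5 to 137.7 CPM in cKO libraries, 0 of the 15 were called in edgeR (3 had an unadjusted p under 0.05, as did 21.2% of all genes), and *Ptprc* had a log2FC of -0.55 (SE 0.20, adjusted p = 0.147 in edgeR). *Lsp1* was left out of that sum after its values were seen, because its counts in uterus exceed those of all other leukocyte genes together. Of 12 macrophage genes, edgeR called 0, and 1 had an unadjusted p under 0.05 (21.2% of all genes). Of the fat and uterine lists it called *Pparg* higher and *Hoxa10*, *Hoxa11* and *Amhr2* lower.

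Further T and B cell genes were taken from lists written from general knowledge. At an adjusted p under 0.05 in edgeR, 2 of 21 further T cell genes tested fell and none rose. Over all genes tested, 2.71% fell and 2.62% rose. Neither of the 2 changed by more than 2-fold, and the median log2FC over the 21 was -0.19. The 2 were *Thy1* and *Tcf7*, whose symbols resemble the unmatched names Thy1l and Tcf7l. *Thy1*, also a surface gene of fibroblasts, was at 151.1 ± 15.5 CPM in controls against 111.7 ± 7.45 CPM in cKO mice (SD, n = 4 per genotype), a log2FC of -0.44 (SE 0.08, adjusted p = 0.00600 in edgeR). *Tcf7*, a transcription factor gene of the WNT pathway that is not confined to T cells, had a log2FC of -0.26 (SE 0.07, adjusted p = 0.0449 in edgeR). Its libraries lay between 49.6 and 68.1 CPM, far above those of the CD3 genes.

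The constant regions of the T cell receptor were not called. *Trac* was at 4.05 ± 0.512 CPM in controls against 4.88 ± 1.43 CPM in cKO mice (SD, n = 4 per genotype), a log2FC of 0.26 (SE 0.20, adjusted p = 0.478 in edgeR). *Trbc1* (-0.76), *Trbc2* (-0.48) and *Trdc* (-0.19) had adjusted p-values from 0.258 to 0.611 in edgeR. Of 19 further B cell genes tested, 1 fell and none rose by the same call, where 2.71% of all genes fell and 2.62% rose. The 1 was *Cd83*, an activation marker of B and dendritic cells that is not confined to them. The median log2FC over the 19 was 0.15. *Cd83* was at 56.1 ± 5.74 CPM in controls against 26.4 ± 3.29 CPM in cKO mice (SD, n = 4 per genotype), a log2FC of -1.08 (SE 0.10, adjusted p = 6.28e-05 in edgeR).

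Levels were also divided by exon length, the union of all exons annotated for a gene in GENCODE M21. This length depends on the annotated isoforms and can exceed that of the transcript present, so the order between genes is approximate. By this measure *Cd52* was the most abundant of the lymphocyte genes with a length in control uteri, at 6.51 CPM per kb. *Lck* followed at 3.38, *Cd79b* at 2.03, *Cd7* at 1.50 and *Ptprcap* at 0.856 CPM per kb. In cKO uteri *Cd52* (3.37 CPM per kb), *Lck* (3.16) and *Cd79b* (2.39) were still the most abundant, while *Cd7* was at 0.182 CPM per kb. Among the receptor chains in control uteri, *Cd3g* was at 0.504, *Cd3d* at 0.413, *Cd247* at 0.347 and *Cd3e* at 0.139 CPM per kb. No length was assigned to *Ighm*, because lengths were taken only through annotated transcripts linked to an Entrez identifier, and it was not placed in the order.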

How the data were processed

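Per the labels, TruSeq stranded mRNA libraries were made from whole uteri. The authors trimmed reads with Trimmomatic, aligned them to GRCm38 with HISAT2 and deposited featureCounts counts per Entrez gene. Tool versions, annotation release and strand setting are not given in the sources used here. Symbols came from a deposited edgeR table, whose fold changes and p-values were not used, and otherwise from RefSeq. A deposited table of log2 values (8 columns) was not used.

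Counts were analysed with R 4.3.3 and edgeR 4.0.16: CPM over 0.2 in at least 4 libraries, TMM, glmQLFit and glmQLFTest with robust = TRUE and prior count 0.125. The standard error is the size of the log2 fold change divided by the square root of F. The exact permutation test used log2(CPM + 0.1). Alternatives used DESeq2 1.42.0, limma 3.58.1 (voom), other scalings and filters, a replicate block, a fat score (mean log2 CPM of the fat list), cKO replicate 4 alone and each library left out. Fits on 2 control libraries were chosen after seeing the data. The labels do not say whether uteri came from separate litters. The members and lists were chosen with earlier results of these data known. Named are every member, *Ezh2*, the called genes of the other lists, the T cell receptor constant genes, *Thy1*, *Tcf7* and *Ptprc*, with some genes not reported here. A limit from a count of 3 covers counting error only. The most similar library pair differed by a chi-square of 7.54 per gene.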

Additional observations from a re-analysis of the deposited data

Results flagged for a closer look

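In 70 groups of 4 libraries, 1 for each gene or summed list and genotype, 3 held a library far from the other libraries of its group, and chance gives about 1 in 20. *Lck* was at 10.6 CPM in cKO replicate 3, against 8.74 to 8.86 CPM in the other cKO libraries. *Icos* was at 0.928 CPM in control replicate 2, against 0.820 to 0.824 CPM in the other control libraries. *Blk* was at 1.32 CPM in control replicate 2, against 0.577 to 0.662 CPM in the other control libraries.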

How the results depend on the processing

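*Cd7* and *Ms4a4b* were called lower under the other scalings, DESeq2, limma-voom, robust = FALSE, both filters, a prior count of 2, the replicate block and each fit without 1 library. Without 1 library, 2 to 3 T lineage and 0 to 1 shared leukocyte genes were called lower, 2 to 4 genes were called with over 2-fold change, and over all genes 233 to 790 were called lower, 192 to 993 higher and 142 to 336 with over 2-fold change, against 452, 437 and 217. The highest counts were without control replicate 4 for the lymphocyte genes, with *Cd3d* and *Cd52* added, and without cKO replicate 4 for all genes, and the lowest were without control replicate 1 (cKO replicate 2 for the last). Leaving out control replicate 3 or cKO replicate 1 or 3 also moved a count over all genes by more than 1.5-fold. *Cd52* was called with DESeq2, robust = FALSE, the replicate block, without control replicate 4 and with control replicates 1 and 2 only, giving 1 shared gene in each. DESeq2 called 713 of all genes lower and 793 higher, and a filter of CPM over 1 left 139 with over 2-fold change. Equal replicate numbers did not mark pairs (correlations of deviations from -0.029 to 0.223, 1 of 4 control libraries closest to its own number). With the replicate block 669 of all genes were called higher, and 3 T lineage genes were called, *Cd3d* (-1.44, adjusted p = 0.0207) among them. The fat score as a covariate, a fit that rests mainly on cKO replicate 4 against controls, left 1 T lineage gene, *Cd7*, and 1 gene with over 2-fold change. Of all genes it left 69 lower, 42 higher and 47 with over 2-fold change. With cKO replicate 4 alone, assumed to vary like the other libraries, the counts were 0, 0, 26, 12 and 22. Control replicates 3 and 4 only gave 1 T lineage gene, 1 with over 2-fold change, 243 lower and 265 higher, and control replicates 1 and 2 only gave 4 with over 2-fold change.

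Some log2 fold changes that had not passed the test turned sign, most of the positive B lineage values among them. With the fat score these were *Foxp3* (-1.07), *Cd79a* (-0.34), *Cd79b* (-0.016), *Ighm* (-0.29) and *Blk* (-0.14). With cKO replicate 4 alone they were *Cd2* (-0.14), *Foxp3* (-1.53), *Cd79a* (-0.28), *Cd79b* (-0.011) and *Ighm* (-0.25). With control replicates 3 and 4 only they were *Cd3e* (0.50), *Cd4* (0.45), *Cd28* (0.18), *Bcl11b* (0.28) and *Cd37* (0.026), and with control replicates 1 and 2 only *Cd2* (-0.21) and *Cd27* (0.14). Without 1 library the log2 fold change went from -0.64 to 0.13 in *Cd3e*, -0.33 to 0.028 in *Cd4*, -0.0023 to 0.82 in *Cd2*, -0.81 to 0.090 in *Cd27*, -0.24 to 0.11 in *Cd28*, -0.24 to 0.0055 in *Icos* and -0.26 to 0.17 in *Cd22*. Depth limits the genes under 10 counts, and the cause of these changes was not tested.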

Other observations

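Some B and T cell genes were also set against leukocyte transcripts. *Cd79a*, *Cd79b* and *Ms4a1* together were 2.83%, 2.78%, 3.16% and 3.17% of the summed CPM of the 15 leukocyte genes in control replicates 1 to 4, and 4.20%, 4.28%, 4.34% and 4.00% in cKO replicates 1 to 4. The genotypes did not overlap for these 3 genes. *Ighm* was 5.93%, 6.60%, 7.59% and 7.27% of the same sum in control replicates 1 to 4 and 10.3%, 12.3%, 8.45% and 7.20% in cKO replicates 1 to 4, with cKO replicate 4 inside the control range. *Cd3e*, *Cd3d* and *Cd3g* together were 2.56%, 2.36%, 1.94% and 1.40% of the same sum in control replicates 1 to 4 and 1.75%, 1.05%, 1.60% and 1.18% in cKO replicates 1 to 4, with overlap. *Cd7*, *Ms4a4b*, *Cd52* and *Ptprcap* together were between 7.20% and 10.0% in control and between 4.04% and 4.99% in cKO libraries. These ratios and their genes were chosen after the values were seen and carry no test.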
